A study of Gallus gallus with 71 samples.

Results

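SCG5 (secretogranin V) was 1 gene among the 30108 Ensembl genes counted in brain nuclei of broiler chicks, and it was followed here over all 18 groups of nucleus, treatment and hour. The count table names genes by identifier only, and the row used is ENSGALG00010021639, which the study's tables pair with this symbol. The gene was chosen by its difference between EHC and control chicks in the nCPa at hour 12, so the values of that comparison are given below as a description, with no test. RefSeq places SCG5 on chromosome 5 of GRCg7b, at 30081676 to 30109634, as a protein-coding gene of 27959 bases. Its neighbours there are GREM1 on one side and ARHGAP11B on the other, and neither overlaps it. SCG5 was 1 of the 20363 genes that passed the filter on low counts (more than 1 CPM, the count scaled to the library total, in at least 4 of the 71 libraries).

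SCG5 encodes a small secretory protein of neurons and endocrine cells. In mammals it binds the inactive form of prohormone convertase 2 in the early secretory pathway, accompanies it to the secretory granule and holds it inactive until the granule has acidified. The convertase then cuts neuropeptide and hormone precursors into their active forms. Hypothalamic and septal nuclei of the stress axis make such precursors, among them those of corticotropin-releasing hormone and arginine vasotocin in birds.

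The study asked how embryonic heat conditioning (EHC) changed transcripts of these nuclei during a later heat challenge. EHC chicks were Hubbard x Cobb-500 chicks whose eggs were kept at 39.5ºC for 12 h a day from embryonic day 7 to 16 and otherwise at 37.5ºC. Control (C) chicks of the same cross came from eggs kept at 37.5ºC. Before hatch the eggs of both groups were moved to a common hatching incubator, which was kept at a lower temperature. Until then each group had its own incubator, and after hatch the chicks were caged by treatment. Effects of incubator and cage therefore cannot be told apart from those of EHC. Chicks of both groups, EHC and C, were held at 30ºC and challenged at 36ºC on day 4 after hatch. Brains were taken before the challenge (hour 0) and after 2 and 12 h. The 3 regions punched were the nCPa, which is the nucleus of the hippocampal commissure in the septum, the POAH, which joins the pre-optic area and the anterior hypothalamus, and the PVN, the paraventricular nucleus. Each group had 4 libraries except EHC PVN at hour 12, which had 3, and each group held both sexes. A punch is a mixture of cell types and can take in tissue beside the nucleus, and markers of the nuclei and of neurons or glia could not be matched to identifiers here, so the nucleus labels were not checked against them.

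The 71 libraries held 910033 to 9370799 counts, with a median of 4157783. Single libraries are named as in their label, and these numbers mostly run in sets of 3 (POAH, nCPa, PVN), which were read as the nuclei of 1 chick although the labels do not name the chick. There were 25 such sets, 3 of them incomplete, and 2 of these (Sample_16 with Sample_17, and Sample_60) are both of control males of hour 0 and may be 1 chick. The summed CPM of 65 genes that were at least 2 times higher in every library labelled female than in any labelled male at hours 0 and 12 went against the sex label in 5 libraries of hour 2. Sample_67, Sample_68 and Sample_69 (EHC) were labelled male and held 2200 to 2718 CPM of these genes, and Sample_70 and Sample_72 (C) were labelled female and held 24.6 and 35.2 CPM. Sample_71 has the number between the last pair and held 1901 CPM, so this set of 3 does not look like 1 chick. Labels were kept as given. The main model fits of SCG5, the set tests, the set correlations and the likeness of the nearest named genes were also computed without these libraries where they use them. Not repeated were the fits with number sets as a block, the set test with Sample_16 and Sample_60 as 1 chick and the set correlations with sex taken out. The fits of the listed genes other than SCG5 were not repeated either.

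SCG5 was readily detected in every library. Its level, in CPM after TMM normalization, ran between 43.5 and 355 CPM over the 71 libraries, with a median of 198 CPM and raw counts of 108 to 2595. Outside EHC nCPa at hour 12, the group means lay between 158.9 CPM in C nCPa at hour 0 and 286 CPM in EHC PVN at hour 12. Ordered by their means, each group from the second lowest to the highest overlapped the next one in range and was closer to it than the larger of their SDs. The lowest group, EHC nCPa at hour 12 with 52.5 ± 6.32 CPM (SD, n = 4), was the exception, and its range did not overlap that of the group above it, C nCPa at hour 0 with 158.9 ± 22.2 CPM (SD, n = 4). The coefficient of variation within groups ran between 5.73% in EHC PVN at hour 2 and 54.5% in EHC POAH at hour 12.

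**Figure D1:**
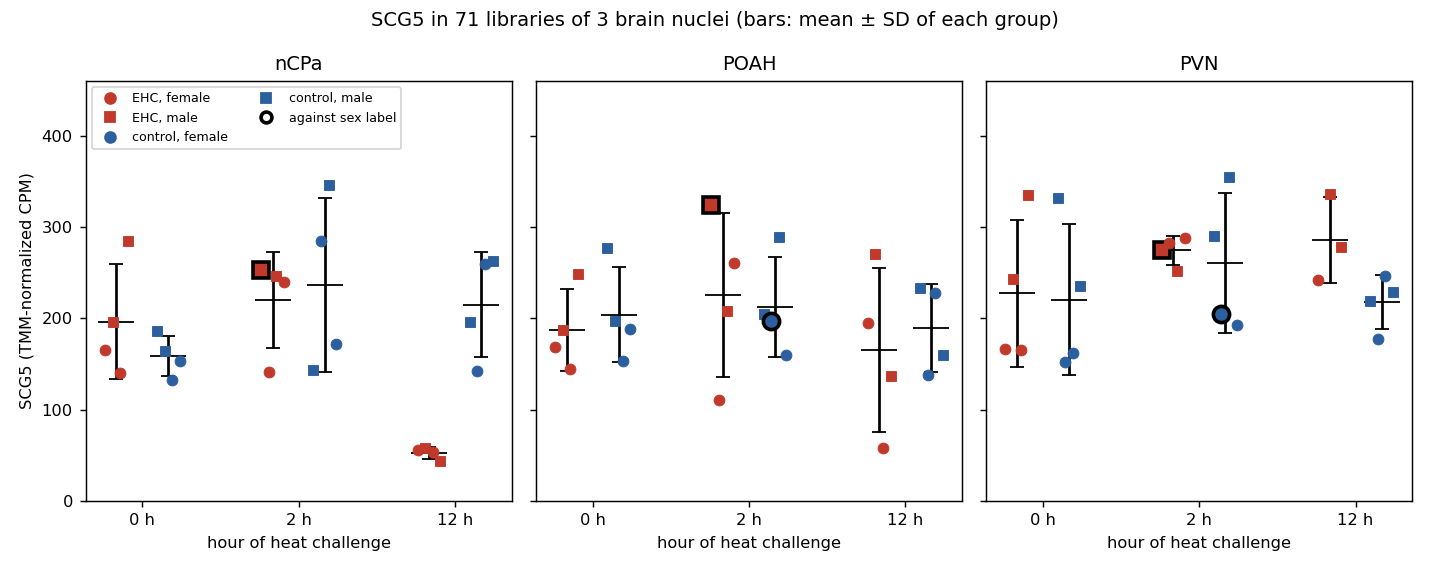
SCG5 level (TMM-normalized CPM, vertical axis) in each of the 71 libraries, by nucleus (panels), hour (horizontal axis), treatment (red EHC, blue control) and labelled sex (circle or square), with black rims on the 5 libraries against their sex label and bars for the mean ± SD of each group. The 4 EHC nCPa libraries of hour 12 lie between 43.5 and 57.9 CPM, and among the other 67 libraries 1 EHC POAH library of hour 12 lies in that range, at 57.7 CPM.

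In the nCPa at hour 12, the comparison that chose the gene, SCG5 was at 55.6, 57.9, 53.2 and 43.5 CPM in EHC chicks, against 196, 142.1, 259 and 262 CPM in C chicks. The 4 EHC libraries were the most uniform of any nCPa group, and all of them lay below every other nCPa library, the next lowest of which held 132 CPM (C, hour 0). The mean of EHC chicks was 0.245 of that of C chicks, and the fitted log2 fold change was -2.04 (SE 0.22). The raw counts behind these levels were 108 to 194 in EHC and 752 to 1233 in C libraries. In this comparison edgeR called 2 genes of 20363 (0.00982%). The number depended on the fit, with 336 called by DESeq2 and 429 by edgeR with all nCPa libraries in 1 model. Nothing is read from these counts about SCG5, whose choice used the same libraries. Both sexes were low among the EHC libraries, with 55.6 and 53.2 CPM in females and 57.9 and 43.5 CPM in males. In bulk punches such as these, fewer cells that express SCG5 and less SCG5 RNA per cell cannot be told apart.

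Other measures moved with this comparison. The EHC libraries held 1956211 to 3401717 counts in all and the C libraries 4681626 to 5130983, with no overlap. The 11 mitochondrially encoded mRNAs that could be named took 1.18% to 1.86% of the counts in EHC libraries, against 5.95%, 4.08%, 6.82% and 0.919% in C libraries. The C library with 0.919% (Sample_173) had the highest SCG5 level of the 4, at 262 CPM. The other C libraries of this comparison were above every other group, where the highest share was 2.46% (EHC PVN, hour 2). Medians of the earlier nCPa groups were 0.932% (EHC) and 0.949% (C) at hour 0, and 1.25% (EHC) and 0.979% (C) at hour 2. For this share the C libraries other than Sample_173 thus stood apart, whereas for SCG5 the EHC libraries did. The part of depth and of the mitochondrial share in the SCG5 difference was not tested.

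The same EHC chicks, as far as the number sets identify them, had higher SCG5 in the other nuclei at hour 12, with 1 exception. In 1 EHC set SCG5 was at 55.6 CPM in the nCPa, 195 CPM in the POAH and 242 CPM in the PVN. A second EHC set had 57.9, 270 and 336 CPM in that order of nuclei, and another had 43.5, 137 and 279 CPM. The exception was the set of Sample_160 and Sample_161, which held 53.2 CPM in the nCPa and 57.7 CPM in the POAH and has no PVN library here. In the 4 sets of C chicks of that hour the nCPa was not regularly the low nucleus. The nCPa, POAH and PVN of these sets held 196, 233 and 219 CPM, then 142.1, 138 and 177.2 CPM, then 259, 228 and 246 CPM, and finally 262, 160 and 228 CPM.

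In the other 8 combinations of nucleus and hour, SCG5 did not pass the test between EHC and C chicks. Fitted log2 fold changes ran between -0.25 (SE 0.38) and 0.34 (SE 0.14), the POAH and the PVN of hour 12, with adjusted p of 0.485 to 0.977 from edgeR's quasi-likelihood test (sex as a covariate, Benjamini-Hochberg over 20363 genes). EHC and C ranges overlapped in all 8. Few genes were called in these comparisons, with calls made up to an adjusted p of 0.1. There edgeR called 52 of 20363 (0.255%) for the PVN of hour 12, 1 (0.00491%) for the POAH of hour 2 and 0 (0%) in the other 6, with 966 to 2038 genes at an unadjusted p under 0.05 over the 8. DESeq2 called 4 to 321 genes in them and SCG5 in none. Two-sided exact permutation tests of the mean log2 CPM gave p of 0.0857 to 0.971, with adjusted p of 0.686 to 0.971 over the 8 tests, where the smallest p that 4 against 4 or 3 against 4 libraries allow is 0.0286.

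**Figure D2:**
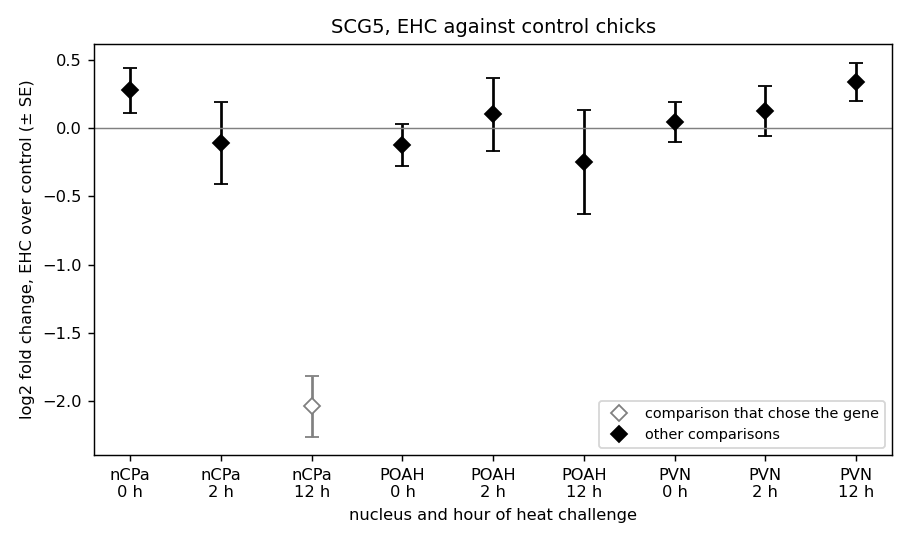
Log2 fold change of SCG5, EHC over control, with its SE (vertical axis) in each nucleus and hour of the heat challenge (horizontal axis). The open symbol marks the comparison that chose the gene, at -2.04, and the other 8 values lie between -0.25 and 0.34.

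Before the challenge the nCPa of EHC chicks held 165, 196, 140 and 284 CPM of SCG5, against 186, 164, 132 and 154 CPM in C chicks (log2 fold change 0.28, SE 0.17, edgeR adjusted p = 0.908). At hour 2 it held 253, 141.6, 247 and 239 CPM in EHC chicks, against 142.9, 285, 346 and 171.9 CPM in C chicks (log2 fold change -0.11, SE 0.30, edgeR adjusted p = 0.947). The 141.6 CPM of EHC Sample_80 stood apart from the other 3 EHC libraries, which lay within 239 to 253 CPM, and C libraries spread over a wider range than EHC libraries. Neither hour passed the test. At hour 0 the fitted value stayed positive whichever library was left out, and was 0.099 without EHC Sample_44, while at hour 2 its sign changed with the library left out.

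In the POAH, SCG5 was at 169, 188, 144.03 and 249 CPM in EHC chicks and 277, 198, 153 and 188 CPM in C chicks at hour 0 (log2 fold change -0.12, SE 0.15). At hour 2, EHC chicks held 324, 111, 208 and 260 CPM, against 205, 197, 289 and 160 CPM in C chicks (log2 fold change 0.10, SE 0.27). At this hour both the highest and the lowest POAH library were of EHC chicks, and the direction depended on single libraries. At hour 12, EHC chicks held 195, 270, 57.7 and 137 CPM, against 233, 138, 228 and 160 CPM in C chicks (log2 fold change -0.25, SE 0.38, edgeR adjusted p = 0.912). Without Sample_160, the EHC library at 57.7 CPM, the log2 fold change was 0.056.

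In the PVN, EHC chicks held 166, 243, 165 and 335 CPM of SCG5 and C chicks 332, 152, 162 and 236 CPM at hour 0 (log2 fold change 0.04, SE 0.15). At hour 2, EHC chicks held 275, 282, 252 and 288 CPM, against 290, 205, 355 and 193 CPM in C chicks (log2 fold change 0.13, SE 0.18). The 4 EHC libraries of this hour lay within 252 to 288 CPM, inside the range of the C libraries. At hour 12, the 3 EHC libraries held 242, 336 and 279 CPM, against 219, 177.2, 246 and 228 CPM in C chicks. This was the largest fitted difference of the 8, with a log2 fold change of 0.34 (SE 0.14), an unadjusted p of 0.0423 and an adjusted p of 0.485 from edgeR, and it is opposite in sign to that of the nCPa at the same hour. It did not pass the test, and 1 EHC library (242 CPM) lay below 1 C library (246 CPM). The mitochondrial share also differed here, with 0.697% to 0.931% in EHC and 0.960% to 1.37% in C libraries. Its part in the SCG5 difference was not tested.

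Over the hours of the challenge, with both treatments pooled, no tested change of SCG5 passed. At hour 2 against hour 0, the log2 fold change of the nCPa was 0.36 (SE 0.17), that of the POAH 0.15 (SE 0.15) and that of the PVN 0.32 (SE 0.13). All 3 were positive, with unadjusted p of 0.0513, 0.317 and 0.0269 and adjusted p of 0.734, 0.964 and 0.671 from edgeR (16 libraries each). The medians at hours 0 and 2 were 165 and 243 CPM for the nCPa, 188 and 206 CPM for the POAH and 201 and 279 CPM for the PVN. At hour 12 against hour 0 the log2 fold change was -0.15 (SE 0.21) in the POAH and 0.15 (SE 0.13) in the PVN, and at hour 12 against hour 2 it was -0.31 (SE 0.24) in the POAH and -0.14 (SE 0.12) in the PVN, with adjusted p of 0.954 to 0.977 from edgeR. In these 7 comparisons edgeR called 0 genes (0%), with 906 to 1409 at an unadjusted p under 0.05, and DESeq2 called 0 to 52.

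In the nCPa, the 8 libraries of hour 12, EHC and C, are those of the comparison that chose the gene, so its comparisons with that hour are a description. EHC libraries held 140 to 284 CPM at hour 0, 141.6 to 253 CPM at hour 2 and 43.5 to 57.9 CPM at hour 12. C libraries held 132 to 186 CPM at hour 0, 142.9 to 346 CPM at hour 2 and 142.1 to 262 CPM at hour 12. The low level was seen at 1 of the 3 hours in EHC chicks and at none in C chicks. The fit over both treatments gave a log2 fold change of -0.38 (SE 0.36) for hour 12 against hour 0 and -0.74 (SE 0.37) for hour 12 against hour 2, comparisons in which edgeR called 5 genes (0.0246%) and 1 gene (0.00491%).

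The test of whether the EHC effect on SCG5 changed with the hour was made where it does not use the nCPa of hour 12. For hour 2 against hour 0 the interaction on the log2 scale was -0.41 (SE 0.35) for the nCPa, 0.19 (SE 0.31) for the POAH and 0.12 (SE 0.27) for the PVN, with adjusted p of 0.851, 0.987 and 0.967 from edgeR. For hour 12 against hour 0 it was -0.14 (SE 0.44) in the POAH and 0.22 (SE 0.27) in the PVN, with adjusted p of 0.957 and 0.778 from edgeR. In the interaction of the PVN at hour 12 edgeR called 0.57% of genes and not SCG5, and in the other 4 it called 0 (0%), with 959 to 1593 genes at an unadjusted p under 0.05 and 2 to 64 called by DESeq2.

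SCG5 was lower in females than in males in the PVN, where the log2 fold change over all hours and both treatments was -0.45 (SE 0.11, edgeR adjusted p = 0.0266, 5.61% of 20363 genes called). Females held 152 to 288 CPM with a median of 193 CPM, and males 219 to 355 CPM with a median of 277 CPM. In the POAH the log2 fold change was of the same size, -0.45 (SE 0.17), and did not pass (edgeR adjusted p = 0.129, 10.6% of genes called). Females there held 57.7 to 260 CPM (median 164 CPM) and males 137 to 324 CPM (median 220 CPM). In the nCPa it was -0.26 (SE 0.15, edgeR adjusted p = 0.307, 5.03% of genes called), with 53.2 to 285 CPM in females (median 147.9 CPM) and 43.5 to 346 CPM in males (median 196 CPM). Without the 5 libraries against their sex label the log2 fold changes were -0.46 for the PVN (edgeR adjusted p = 0.026), -0.42 for the POAH and -0.26 for the nCPa. Each nucleus was fitted on its own.

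Female and male libraries were most regularly separated before the challenge. At hour 0 every male library lay above every female library of its group in 6 of 6 groups, a pattern seen with males higher in 433 of 20363 genes (2.13%). In the PVN at that hour females held 166, 165, 152 and 162 CPM, against 243, 335, 332 and 236 CPM in males. The 4 females lay close together, and both treatments showed the gap to the males. In the POAH females held 169, 144.03, 153 and 188 CPM, against 188, 249, 277 and 198 CPM in males. In the nCPa females held 165, 140, 132 and 154 CPM, against 196, 284, 186 and 164 CPM in males.

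At hour 2 the males lay above the females in 3 of 6 groups and below them in 1, with the same counts without the libraries against their label, and at hour 12 they lay above in 1 of 6 groups and overlapped with the females in 5. Fitted on hour 0 alone, a split chosen after these values were seen, the log2 fold change of females against males was -0.83 (SE 0.15) for the PVN, -0.47 (SE 0.15) for the POAH and -0.47 (SE 0.17) for the nCPa, with adjusted p of 0.0205, 0.173 and 0.197 from edgeR. edgeR called 4.96%, 2.81% and 1.77% of genes in these 3 fits. In the PVN the value was -0.30 (SE 0.18) at hour 2 and -0.18 (SE 0.14) at hour 12, and neither passed. In the POAH it was -0.50 (SE 0.27) at hour 2 and -0.41 (SE 0.38) at hour 12, close to the value of hour 0, and in the nCPa it was -0.25 (SE 0.30) and -0.05 (SE 0.21). Without the libraries against their sex label the values of hour 2 were -0.28 (PVN), -0.38 (POAH) and -0.22 (nCPa), none of which passed. The difference between hours was tested as an interaction of sex with hour. For hour 12 against hour 0 it was 0.65 (SE 0.21) in the PVN, with an unadjusted p of 0.00895 and an adjusted p of 0.913 from edgeR, and for hour 2 against hour 0 it was 0.55 (SE 0.24, edgeR adjusted p = 0.362). In the nCPa and POAH the interactions were -0.04 to 0.43 with adjusted p of 0.886 to 0.983 from edgeR. edgeR called 0 genes (0%) in all 6 interactions, with 885 to 2525 genes at an unadjusted p under 0.05, and DESeq2 called 0 to 398.

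The 3 nuclei of a chick are not independent, so sexes were also compared over number sets, each set taken as its mean deviation from the group means. At hour 0 the 4 female sets averaged -0.29 and the 5 male sets 0.25 on the log2 scale, a difference of -0.54. The exact permutation over sets, both sides, gave p = 0.00794, the lowest that free shuffling of 4 against 5 sets can give (0.0159 adjusted over 8 tests). That test counts more sets than the study reports chicks at this hour. With the incomplete sets of Sample_16 and Sample_60 taken as 1 chick, which fits the reported number, 4 female and 4 male sets differed by -0.58 (exact permutation p = 0.0286, the lowest that 4 against 4 can give, 0.0458 adjusted over the 8 tests). At hour 2 the difference of 4 female and 4 male sets was -0.35 (exact permutation p = 0.171; without the sets that hold a library against its label -0.36, exact permutation p = 0.3, where 0.1 is the lowest possible), and at hour 12 it was -0.29 (exact permutation p = 0.314). Over all hours 12 female and 13 male sets differed by -0.40 (permutation test, p = 0.00109, adjusted p = 0.00491), and without the sets that hold a library against its label by -0.41 (permutation test, p = 0.00184). With the sets of Sample_16 and Sample_60 taken as 1 the difference was -0.41 (permutation test, p = 0.00182). All of these tests shuffled sets without regard to treatment, and those over all hours also without regard to hour. The deviations, however, were taken from the mean of each treatment and hour, so the p are approximate. At hour 0, shuffling within treatments, which was not done, could not give p as low as these. These tests over sets were added after the values were seen, and they include the PVN libraries whose sex difference was known beforehand, so they are not independent support.

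**Figure D3:**
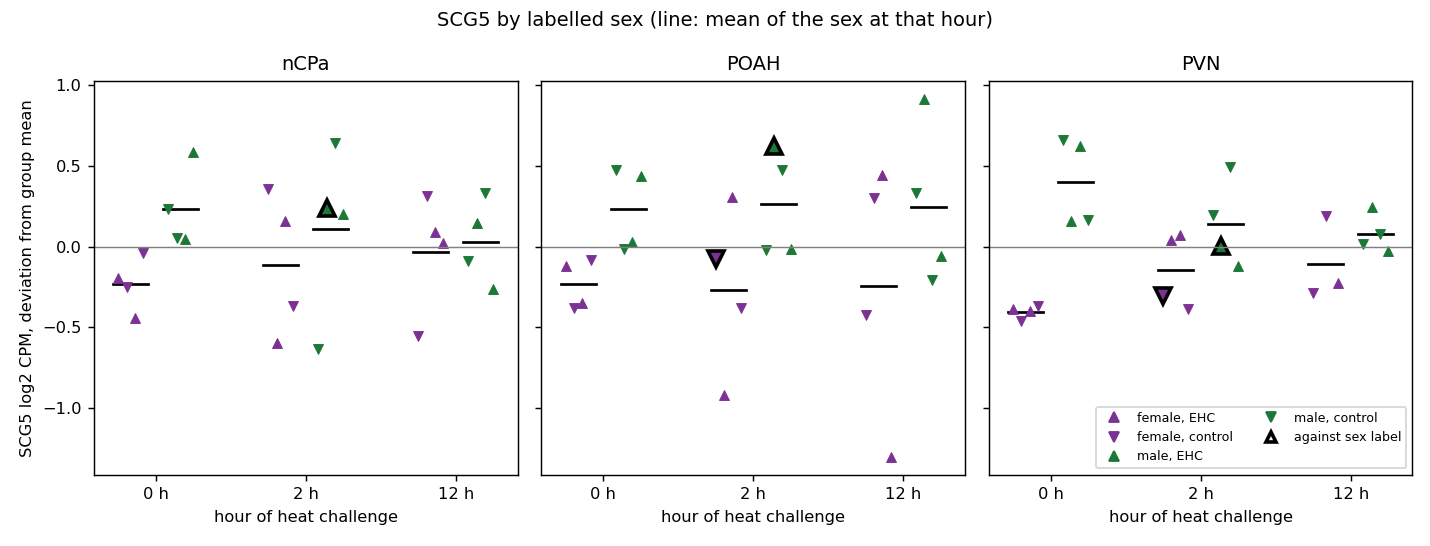
Deviation of SCG5 log2 CPM from the mean of its group (vertical axis) for libraries labelled female (purple) and male (green) at each hour (horizontal axis) of the 3 nuclei (panels), with upward triangles for EHC, downward triangles for control, black rims for libraries against their sex label and lines for the mean of each sex. At 0 h all female libraries lie below all male libraries of their own group, and at 12 h the sexes overlap in 5 of 6 groups.

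Between nuclei, SCG5 was highest in the PVN. The 23 PVN libraries held 152 to 355 CPM with a median of 243 CPM, the 24 POAH libraries 57.7 to 324 CPM with a median of 196 CPM, and the 20 nCPa libraries outside EHC hour 12 held 132 to 346 CPM with a median of 191 CPM. The PVN was above the POAH by a log2 fold change of 0.30 (SE 0.10, edgeR adjusted p = 0.0596, 11.5% of genes called). This call was lost with no sex term in the model (log2 fold change 0.31, edgeR adjusted p = 0.119). Without Sample_160 it was 0.26 (edgeR adjusted p = 0.049). The PVN was above the nCPa by 0.47 (SE 0.15, edgeR adjusted p = 0.0276, 22.1% of genes called) with all libraries. That value rests in part on the nCPa libraries of hour 12, EHC and C, whose comparison chose the gene. Without them the log2 fold change was 0.27 (SE 0.11, edgeR adjusted p = 0.0945, 17.4% of genes called). The POAH and nCPa did not differ by the test, at 0.16 (SE 0.16, edgeR adjusted p = 0.647, 5.52% of genes called) with all libraries and 0.04 (SE 0.14, edgeR adjusted p = 0.973, 0.113% of genes called) without the nCPa libraries of hour 12. Punches of different nuclei also differ in their cell make-up, which was not measured here.

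SCG5 tended to deviate in the same direction in the nuclei of 1 number set: of the 22 sets with 3 nuclei, 15 had 1 sign in all of them and 7 had mixed signs. Signs were not counted for other genes. Libraries of a set also share deviations over all genes (median r of 0.206 to 0.323 by pair), so this is not read as particular to SCG5. Deviations from the group means correlated between nCPa and POAH with r = 0.55 (n = 24 sets, permutation p = 0.00192, adjusted p = 0.00864 over 9 relations; Spearman rho = 0.61, p = 0.00217) and between POAH and PVN with r = 0.57 (n = 22 sets, permutation p = 0.00092, adjusted p = 0.00828; rho = 0.65, p = 0.00119). Between nCPa and PVN the correlation was r = 0.53 (n = 22 sets, permutation p = 0.0281, adjusted p = 0.0843; rho = 0.47, p = 0.059). Leaving out the 2 sets farthest from the median gave r = 0.51, 0.70 and 0.72 in the same order of pairs. Without the sets that hold a library against its label they were 0.56, 0.59 and 0.61 (nCPa with POAH, POAH with PVN, nCPa with PVN; n = 22, 20 and 20 sets; permutation p = 0.00309, 0.00122 and 0.00926, adjusted over these 3 relations 0.00464, 0.00366 and 0.00926; rho = 0.66, 0.70 and 0.58). With all sets and sex taken out, the r were 0.46, 0.39 and 0.40, with permutation p of 0.0186, 0.1 and 0.066 (adjusted over these 3 relations, 0.0558, 0.1 and 0.099). The set of Sample_160 and Sample_161 was the clearest departure, with deviations of -1.30 in the POAH and 0.03 in the nCPa.

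**Figure D4:**
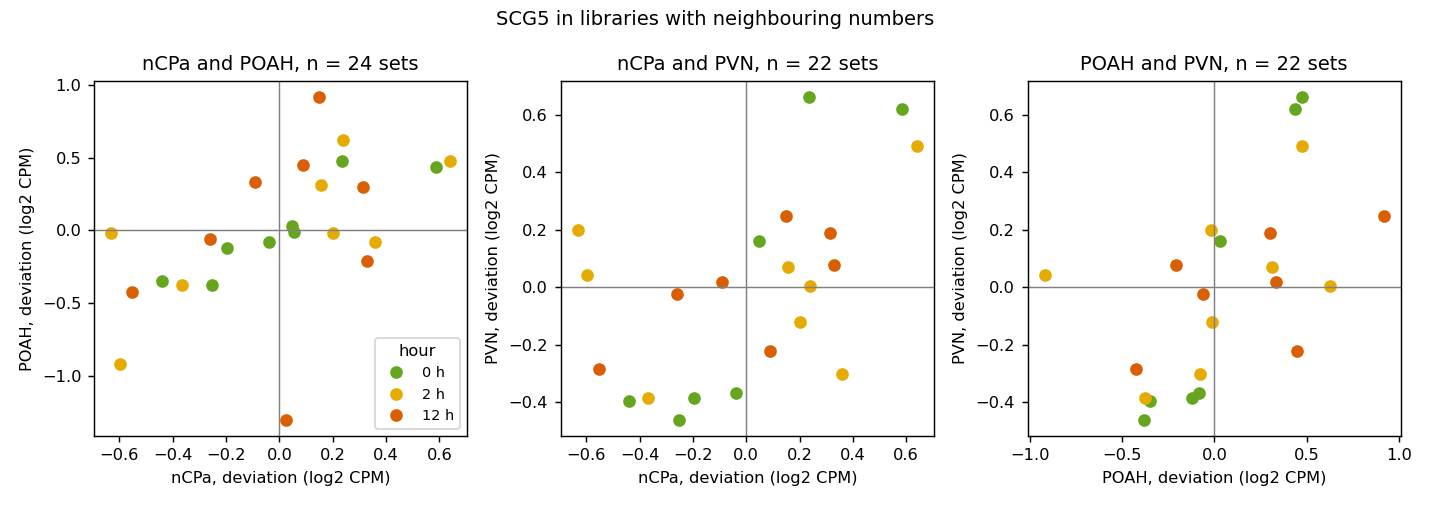
Deviation of SCG5 from its group mean (log2 CPM) in 1 nucleus against another (axes) for library sets with neighbouring numbers, coloured by hour. Points run upward to the right in each panel, with r = 0.55 for nCPa and POAH (24 sets), 0.53 for nCPa and PVN (22 sets) and 0.57 for POAH and PVN (22 sets).

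Within groups, SCG5 was not related to depth or to the mitochondrial share beyond the spread. Its deviations correlated with those of the log2 total count with r = -0.16 (nCPa), 0.09 (POAH) and -0.23 (PVN) (n = 24, 24 and 23 libraries, permutation p = 0.675, 0.717 and 0.18). With the share of mitochondrially encoded mRNAs the correlations were 0.15, -0.16 and -0.16 in the same nuclei (permutation p = 0.595, 0.668 and 0.462). Spearman's rho of these 6 relations ran between -0.31 and 0.38, with permutation p of 0.112 to 0.984, and the smallest adjusted p of the 6 was 0.405 for r and 0.252 for rho. Leaving out the 2 libraries farthest from the median changed the sign of r for depth in the nCPa (0.18). It also raised r to 0.32 for depth in the POAH and to 0.38 for the mitochondrial share in the nCPa. These values were not tested.

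Across the 71 libraries, with the 18 group means taken out, the named genes whose level followed that of SCG5 most closely were subunits of the vacuolar proton pump, the enzyme that acidifies secretory granules, synaptic vesicles and lysosomes. ATP6V1C1, a stalk subunit of the pump, had r = 0.80 and ranked 3 of 20362 genes, and ATP6V1H, a regulatory subunit, had r = 0.79 and ranked 5. ATP6V1G1, another stalk subunit, followed with r = 0.70 (rank 110). Then came CSNK1A1, a casein kinase, with r = 0.59 (rank 549) and EIF4A2, a helicase of translation initiation, with r = 0.59 (rank 594). Without the libraries against their sex label (66 left) these 5 had r of 0.59 to 0.79, with ATP6V1C1 at rank 6 and ATP6V1H at rank 9. For comparison, the median r of all 20362 genes was -0.04, 5% of them were above 0.53, and 99 had r of at least 0.7. Not all pump subunits were this close, and ATP6V1D had r = 0.53 (rank 1008). These symbols come from the 92 other genes that the study's tables name, most of which the study picked on these libraries for EHC differences, so the search among named genes was narrow. Without a symbol, ENSGALG00010012667 (r = 0.83) and ENSGALG00010003962 (r = 0.81) ranked 1 and 2. The named genes that ran most opposite to SCG5 were BEND3, which encodes a DNA-binding protein of heterochromatin, with r = -0.42, CHAD, a cartilage matrix protein, with r = -0.37, and OC3 with r = -0.36. Libraries of 1 chick share their source, and correlations across libraries also hold what the libraries share in depth and cell make-up. Sex was not taken out, so these r also hold any sex difference that SCG5 and another gene share.

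**Figure D5:**
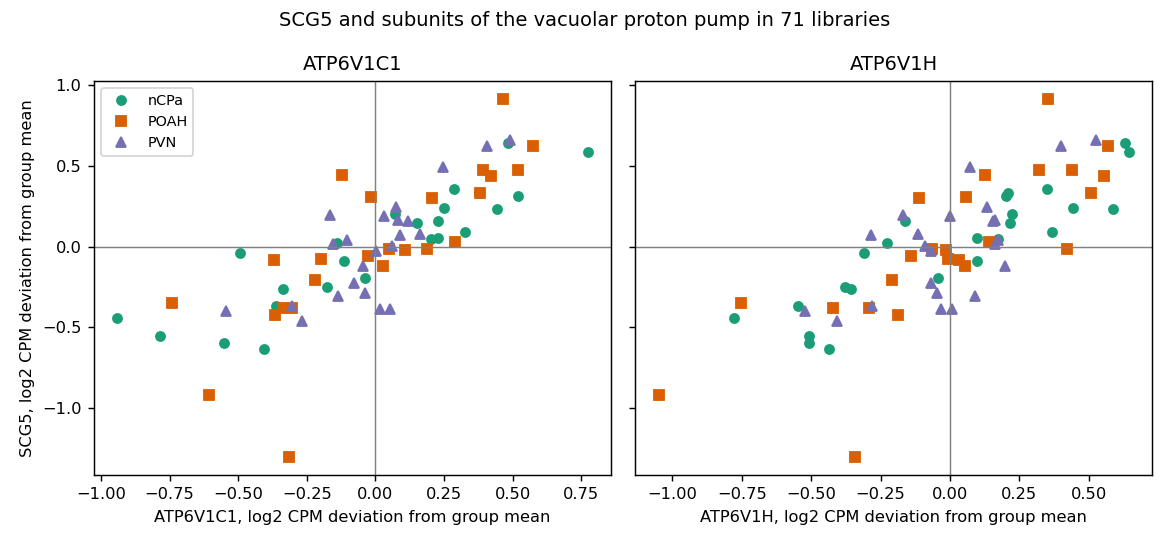
Deviation of SCG5 log2 CPM from its group mean (vertical axis) against that of ATP6V1C1 and ATP6V1H (horizontal axes), with 1 point for each of 71 libraries, by nucleus. Over all 71 libraries r was 0.80 for ATP6V1C1 and 0.79 for ATP6V1H, and it was not computed for each nucleus. POAH Sample_160 lies lowest, at -1.30 for SCG5.

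The secretory pathway genes that could be named were 9: 4 subunits of the proton pump, the SNARE protein YKT6, the Golgi protein YIPF5, MOGS, which trims glycans in the endoplasmic reticulum, TBC1D20, a regulator of early vesicle traffic, and BLOC1S1, of lysosome and endosome complexes. The convertases, granins and precursors that act with SCG5 (14 granule genes and 16 precursors looked for) could not be matched to an identifier. Within groups the median r of the 9 with SCG5 was 0.43, and the pump subunits were above the other 5. The study picked all 9 on comparisons that use the nCPa libraries of hour 12. YKT6, YIPF5 and MOGS were picked on hour 12 against an earlier hour in that nucleus. The pump subunits, TBC1D20 and BLOC1S1 were picked on EHC against C in the nCPa at hour 12, so their direction in that comparison is not independent evidence. In that comparison none of the 9 passed the test in edgeR, where 0.00982% of all genes were called, so this count says nothing about the 9. Of the 9, 7 had negative and 2 positive log2 fold changes, and the median was -0.72 against -0.01 for all genes. Given how the genes were picked, this split is not independent evidence either. ATP6V1C1 was at 48.5 ± 9.96 CPM in EHC chicks and 121 ± 44.2 CPM in C chicks there (SD, n = 4 each). ATP6V1H was at 55.1 ± 13.2 CPM in EHC chicks and 108 ± 22.8 CPM in C chicks.

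The 9 genes were read in the same fits by sex and between nuclei. By sex none of the 9 passed in the PVN, where SCG5 did (5.61% of all genes called), with ATP6V1C1 at -0.23 (edgeR adjusted p = 0.197) and ATP6V1H at -0.24 (edgeR adjusted p = 0.204). In the POAH, where SCG5 did not pass, 4 of the 9 were lower in females (10.6% of all genes called in either direction), all of them pump subunits: ATP6V1C1 at -0.51 (edgeR adjusted p = 0.00698), ATP6V1H at -0.45, ATP6V1G1 at -0.35 and ATP6V1D at -0.29, with a median of -0.35 for the 9 against 0.03 for all genes. In the nCPa none passed (5.03% of all genes called). The 11 mitochondrially encoded mRNAs also had negative values in females in all 3 nuclei, with 7 called in the POAH and none elsewhere, and medians of -0.44 in the POAH and -0.25 in both the nCPa and the PVN. Their part in the sex differences of SCG5 and the pump subunits was not tested. Neither the 9 genes nor these mRNAs were read without the libraries against their sex label. Over all genes, edgeR called 2167 by sex in the POAH with all libraries and 1304 without those against their label. Between nuclei, 4 of the 9 were higher in the PVN than in the nCPa (22.1% of all genes called), with ATP6V1C1 at 0.38 and ATP6V1H at 0.39. This fit includes the nCPa libraries of hour 12, on which the study picked the pump subunits as lower in EHC chicks. Its direction for them is therefore not independent evidence, and the 9 were not read without those libraries. Against the POAH, 3 of the 9 were higher in the PVN (11.5% of all genes called), namely ATP6V1C1 at 0.27 (edgeR adjusted p = 0.0205), ATP6V1H at 0.25 and ATP6V1G1 at 0.22. In the POAH against the nCPa, 4 of the 9 had positive and 5 negative values. There 1 of the 9 was called, lower in the POAH (5.52% of all genes called), in a fit that also includes the nCPa libraries of hour 12. In the other 8 comparisons of EHC with C chicks none of the 9 passed in either direction, where 0% to 0.255% of all genes were called.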

How the data were processed

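RNA was measured in 71 libraries of punched nuclei, made with a stranded total RNA kit with removal of ribosomal RNA. The values deposited by the authors are unfiltered whole-number counts of reads per Ensembl gene, not normalized. Before deposit, adapters were cut with Trimmomatic 0.39 and reads were placed on the chicken genome (annotation of GRCg7b) with HISAT2; the authors kept uniquely placed reads with SAMtools 1.10, removed duplicates and counted with featureCounts. The strand setting of the counting is not given in the sources used here. Total counts were 910033 to 9370799 in a library, which sets the precision of each level.

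A gene was kept if 4 or more of the 71 libraries held over 1 CPM of it (20363 of 30108). Comparisons were tested with the quasi-likelihood test of edgeR 4.0.16 (limma 3.58.1, R 4.3.3) in its version 4 form, with TMM factors from the libraries compared, Benjamini-Hochberg adjustment over all genes and an adjusted p of at most 0.1. Sex was a covariate except where it was tested. DESeq2 1.42.0, its size factors, no filter, no sex term, left-out libraries and other library selections were the alternatives. Levels are TMM-scaled CPM, and log2 CPM used a prior count of 2. The scripts were tested on simulated data, and plots were drawn with matplotlib 3.10.9.

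Named were SCG5, the 5 genes with a symbol that were most like it and the 3 least like it by Pearson's r, and at most 2 without a symbol. Symbols came from the study's tables and RefSeq. The lists were granule genes (0 of 14 matched), peptide precursors (0 of 16), secretory pathway genes (9 of 9) and mitochondrially encoded mRNAs (11 of 11). SCG5 and the lists were chosen with earlier results of these data known. The interaction of sex with hour, each hour alone, the sex tests over number sets the fits without Sample_160, the block without hour 12 and some of the repeats without libraries against their sex label were added after the values were seen.

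Groups follow the labels. Nothing in the labels ties libraries to chicks, so p-values measure the spread between libraries. Over all genes, deviations of libraries of the same number set correlated with medians of 0.323 (nCPa and POAH), 0.206 (nCPa and PVN) and 0.302 (POAH and PVN), but not every set was over 0.1, so sets were not used as a block in the main fits. No sequence of SCG5 was used here.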

Additional observations from a re-analysis of the deposited data

Results flagged for a closer look

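In EHC nCPa at hour 2, Sample_80 held 141.6 CPM of SCG5, against 239 to 253 CPM in the other 3 libraries of the group. The gap was 0.8745 of the range of the group, above Dixon's critical value at the 95% level for a group of that size. It was the only one of 17 groups of 4 to pass, and chance passes about 1 in 20.

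In EHC PVN at hour 2, the 2 female libraries (282 and 288 CPM) lay above the 2 male libraries (275 and 252 CPM), with a difference of 0.11484 on the log2 scale, while males lay above females in all 6 groups of hour 0. The difference between this group and the others was not tested. Sample_69, at 275 CPM, is labelled male and goes against its label, and the remaining male library was still below both females.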

How the results depend on the processing

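Of 306 alternatives over 35 results, 291 kept the direction and, where there was a test, the side of the threshold, 4 lost a call of SCG5, 11 changed sign and 0 gained a call. The tally by threshold includes 6 alternatives of hour 12 against hour 0 and 7 of hour 12 against hour 2 in the nCPa. Those 2 comparisons are a description here, so their part of the tally is not support. EHC against C in the nCPa at hour 12 had no test of SCG5, and its 15 alternatives were read by their values only. The genes called there were 2 in the reported fit, 0 in 6 of the 8 fits with 1 library left out, 4 without C Sample_143, 153 without C Sample_173 and 429 with all nCPa libraries in 1 model. Calls were lost for females against males in the PVN at hour 2 alone (-0.30, and -0.28 without libraries against their sex label) and hour 12 alone (-0.18), fits with fewer libraries, and for the PVN against the POAH with no sex term (0.31). Signs changed without the libraries against their sex label for EHC against C in the POAH at hour 2 (-0.022) and for sex by hour 2 in the POAH (0.066), and with EHC libraries alone for hour 12 against hour 2 in the PVN (0.017). None of these sign changes was in a called result, and the cause was not tested. Leaving out 1 library at a time gave EHC against C values of -0.34 to 0.12 in the nCPa at hour 2, -0.17 to 0.30 in the POAH at hour 2, -0.56 to 0.056 in the POAH at hour 12 (0.056 without Sample_160) and -0.052 to 0.16 in the PVN at hour 0, and of -2.20 to -1.87 in the nCPa at hour 12. DESeq2 called more genes than edgeR: 4 to 336 against 0 to 52 for EHC, 0 to 209 against 0 to 5 for hours, 2 to 439 against at most 0.57% of 20363 for treatment by hour and 0 to 398 against 0 for sex by hour. With number sets as a replicate block the nuclei gave 0.49 (PVN against nCPa, edgeR adjusted p = 0.0409), 0.28 (PVN against POAH, edgeR adjusted p = 0.0161) and 0.21 (POAH against nCPa, edgeR adjusted p = 0.4), with 4250, 3671 and 2127 genes called. Without hour 12, whose nCPa libraries chose the gene, the block gave 0.27 (PVN against nCPa, edgeR adjusted p = 0.0802) and 0.044 (POAH against nCPa, edgeR adjusted p = 0.858). The block changed no call of SCG5.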
